A study of Mus musculus with 20 samples.

Results

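Liver transcriptomes of male mice of 2 inbred strains were compared, B6 (C57BL/6N) and C3 (C3H/HeN), as 10 of the 20 libraries of a study that also held females. The members are the 5 B6 male livers and the 5 C3 male livers that the labels give, and the measurement is the count of RNA-seq read pairs on each autosomal gene, with the sequencing pool of each library as a covariate. All 10 mice were 20 weeks old, came from 1 supplier and were single housed on the same light cycle and diets, and the left lateral lobe of the liver was sampled within a morning. The labels name no treatment and no transgene or deleted gene for either group. Each strain is an inbred line, so the comparison describes these inbred lines at 1 age under 1 housing regime. Of the 25444 gene loci in the count table, 23974 are autosomal, and 13259 of these held enough counts to be tested.

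The liver makes most plasma proteins, stores and oxidises fat, converts amino acid nitrogen to urea, and clears drugs and bile acids, with these tasks divided between hepatocytes around the portal vein and around the central vein. C3H mice are known for a high rate of spontaneous liver tumours in males, and C57BL/6 mice for a low one, a contrast that the study names. Inbred strains differ by fixed sequence variants, deletions and duplications, which are frequent in clustered gene families such as major urinary proteins, cytochromes P450, histocompatibility genes and interferon-inducible genes.

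Depth lay between 27370921 and 44044404 counted read pairs in the 10 male libraries, at which 3 counts, taken here as the detection floor, correspond to between 0.0713 and 0.116 CPM (counts scaled to a common library size with TMM factors). Log2 CPM of livers of 1 strain correlated at 0.972 to 0.990 in B6 and at 0.978 to 0.990 in C3 across genes. The hepatocyte marker list (Alb, Ttr, Apoa1 and 7 more) summed to between 102826 and 120919 CPM in B6 and between 145484 and 163559 CPM in C3, so the defining transcripts of hepatocytes were present in every sample. The 10 most abundant genes held 16.5 to 18.7% of the counts in B6 livers and 20.2 to 21.9% in C3 livers. The part of this difference in CPM values was not tested, and TMM scaling leaves such genes out when it sets the library factors.

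The strains differed at 1291 autosomal genes, 9.74% of those tested, by an adjusted p under 0.001 and a log2 fold change over 0.5 in either direction (edgeR quasi-likelihood test). Expression was higher in C3 at 550 genes (4.15% of those tested) and higher in B6 at 741 (5.59%). These shares over all tested genes are the background for the counts of each gene list below. Below, "called" means past both thresholds, fold changes are C3 relative to B6 on the log2 scale ± SE, so that negative values are higher in B6, and expression is mean CPM ± SD over 5 livers. The median over all tested genes was 0.02. The 5 livers of one strain did not overlap the 5 of the other at 1104 of the 1291 called genes, beside 2014 (15.2%) of all tested genes. For all 1291 the sign was the same in each of the 3 sequencing pools. Both counts follow in part from the call itself, which used the same livers. In pool 2 B6 males had liver 1 alone, and in pool 3 C3 males had liver 4 alone. Differences were under 2-fold at 587 called genes, between 2-fold and 4-fold at 366, and 4-fold or more at 338, of which 148 were higher in C3 and 190 higher in B6. Among 118 genes that differed 16-fold or more, 52 were higher in C3 and 66 in B6. The labels do not say how the mice of a group were related, so the p-values speak for these livers only. The spread behind them was estimated over all 20 libraries, females included. With the males fitted on their own, 1075 autosomal genes were called. Without the pool term, 46 of the 176 called genes named in the text were not called, Trf, Apoa1, Adh1, Glul and Gapdh among them. In whole liver, fewer cells of a type and less RNA per cell cannot be told apart.

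**Figure D1:**
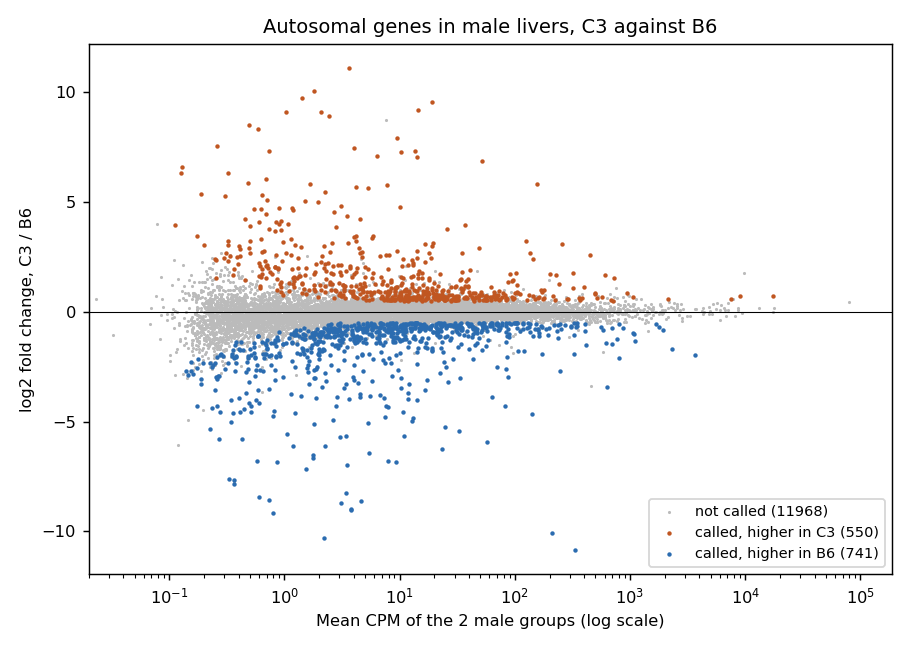
Log2 fold change of C3 over B6 in male livers (vertical axis) against the mean CPM of both groups (horizontal axis, log scale) for the 13259 tested autosomal genes, each a point. The 550 genes called higher in C3 and the 741 called higher in B6 lie over most of the range of expression, and most changes of over 16-fold lie in the left part of the plot.

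The largest differences were genes near the floor in one strain. At 27 called genes every B6 liver held 3 counts or fewer, and at 44 every C3 liver did. For these genes only a lower bound of the fold change can be given, against 3 counts in each library.

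H2-Ea-ps, the locus of the alpha chain of the class II molecule H2-E, which C57BL/6 mice are known not to make, had no count in any B6 liver and 13.96, 2.88, 4.37, 11.7 and 3.39 CPM in C3 livers 1 to 5, at least 84.96-fold higher. Ifi202b, an interferon-inducible member of the Pyhin family that binds DNA, had no count in B6 and 4.80, 3.46, 3.72, 3.47 and 2.78 CPM in C3, at least 42.6-fold higher. The difference was complete in both genes, with no B6 liver above 0.

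C1rb and C1s2, copies of the genes for the complement proteases C1r and C1s, lie beside each other on chromosome 6. C1s2 stood at 0.0321, 0.122, 0.0245, 0.0494 and 0.0307 CPM in the 5 B6 livers and at 29.8, 25.3, 23.9, 44.2 and 19.7 in C3 (log2 fold change 9.18 ± 0.26, and 9.77 without B6 liver 2). C1rb was at least 445-fold higher in C3, where 4 livers held between 10.95 and 16.4 CPM and liver 5 held 138, against at most 0.0740 in B6. Liver 5 carried that bound, which was 153-fold over the other 4 livers. Klk1b22, a glandular kallikrein, was listed at 0 in B6 and averaged 2.83 ± 0.929 CPM in C3, at least 33.1-fold higher. Tmc5, a transmembrane channel-like gene, averaged 4.86 ± 0.997 CPM in C3 and was at least 56.8-fold higher. Rprl3, an RNase P RNA-like locus, varied from 0.922 to 10.2 CPM between C3 livers and was at least 48.4-fold higher (30.6-fold without C3 liver 4), and the uncharacterised Gm15698 at least 24.3-fold.

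On the B6 side, Mup11 and Mup14, major urinary protein genes, whose loci each overlap another on the same strand, averaged 663 ± 312 and 424 ± 159.8 CPM in B6 and 0.297 ± 0.186 and 0.349 ± 0.163 in C3 (log2 fold changes -10.85 ± 0.54 and -10.05 ± 0.36). Cebpe, a C/EBP transcription factor known from granulocytes, stood at 7.82, 5.17, 6.88, 6.71 and 4.60 CPM in B6, and C3 lay at least 66.3-fold lower. Trim12a, a tripartite motif gene of a cluster on chromosome 7, stood at 8.88, 8.72, 5.36, 7.80 and 6.72 CPM in B6, and C3 lay at least 79.6-fold lower. Olfr1033, annotated as an olfactory receptor, averaged 9.27 ± 2.92 CPM in B6 and was at least 98.5-fold lower. The prostatic acid phosphatase gene Acpp averaged 7.55 ± 1.25 CPM in B6 and was at least 80.2-fold lower, and 4930481A15Rik at least 47.2-fold. Cfd, complement factor D, which adipocytes secrete as adipsin, stood at 3.65, 1.71, 0.563, 0.765 and 1.29 CPM in B6 and had no count in C3, at least 16.97-fold lower. Without the pool term Cfd was not called (adjusted p = 0.00143). In all females of both strains Cfd was listed at 0.

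**Figure D2:**
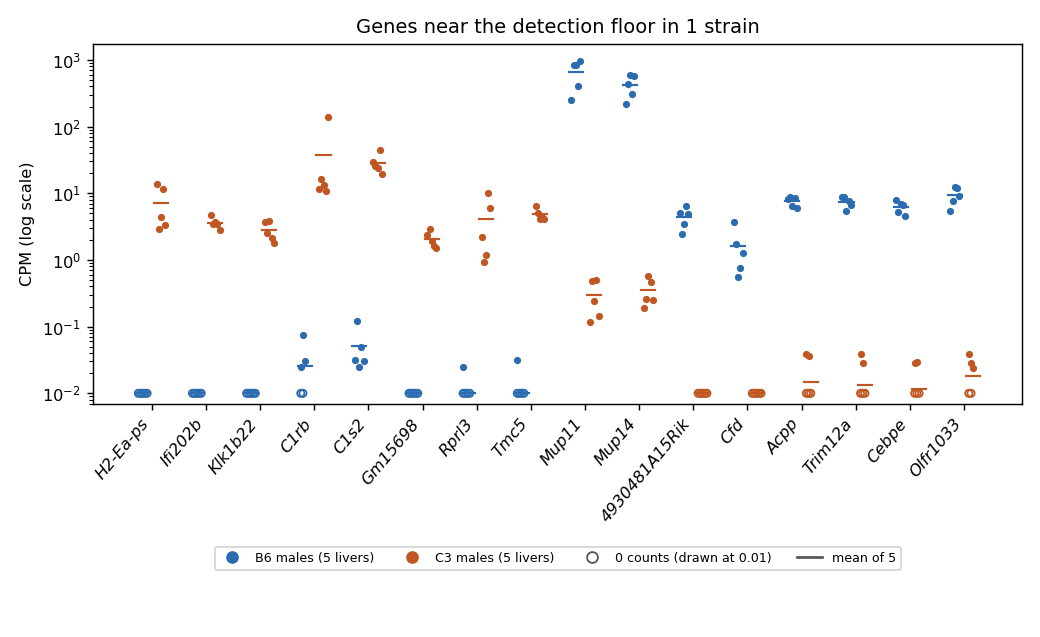
CPM (log scale) in each of the 10 male livers for the 8 genes in each direction with the largest fold change among called genes without overlap and with a mean of 1 CPM or more in the higher strain, with the mean of each group as a line and livers without a count drawn as open circles at 0.01. The 8 genes on the left are at or near 0 in every B6 liver, the 8 on the right are highest in B6, and Mup11 and Mup14 keep a low level in C3.

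By the difference of mean TPM (the deposited level per transcript length), the called genes furthest above B6 in C3 included Trf, the plasma iron carrier transferrin, at 12079 ± 2918 TPM in B6 and 17741 ± 4181 in C3, and Apoa1, the main protein of high-density lipoprotein, at 13842 ± 2719 and 22375 ± 3763 TPM. Ahsg, which encodes fetuin-A, rose from 5906 ± 559.6 to 9206 ± 1024 CPM (log2 fold change 0.59 ± 0.09), and Apoh, a phospholipid-binding plasma protein, from 1737 ± 152 to 2501 ± 165 CPM (0.56 ± 0.05). These 4 differences were under 2-fold, and the livers of the strains overlapped for Trf. The P450 genes Cyp2c67 and Cyp2c70, given below, were also among the 8 furthest above B6. Those furthest above C3 in B6 included Mup20, the pheromone darcin, at 13381 ± 5564 TPM against 3121 ± 625 in C3. Another was Adh1, the main hepatic alcohol dehydrogenase, which stood at 2424 ± 487 CPM in B6 and 1450.0 ± 198 in C3 (log2 fold change -0.83 ± 0.08). Sord, sorbitol dehydrogenase, was at 1583, 1440.0, 1692, 1655 and 1583 CPM in the B6 livers and 596, 659, 623, 643 and 665 in the C3 livers (-1.32 ± 0.07), with a gap between the strains far wider than the spread within them. Without the pool term Trf, Apoa1 and Adh1 were not called (adjusted p = 0.0175, 0.0117 and 0.00274). Gsta3, a glutathione S-transferase, was at 2184 ± 219 and 1362 ± 143 CPM (-0.71 ± 0.09).

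Hepatocytes break fatty acids down in mitochondria and peroxisomes and by omega-hydroxylation in the endoplasmic reticulum, and many of these genes are targets of the nuclear receptor PPAR-alpha. The related receptor PPAR-gamma, encoded by Pparg, drives fat storage in adipocytes and is normally low in hepatocytes. Pparg stood at 18.9, 25.1, 14.97, 17.1 and 15.8 CPM in the B6 livers and 0.116, 0.144, 0.180, 0.214 and 0.178 in the C3 livers (log2 fold change -6.82 ± 0.30, adjusted p = 3.2e-12), and it was the one called gene of the 46 tested nuclear receptors and liver transcription factors. The lowest B6 liver lay far above the highest C3 liver. The transcript of PPAR-alpha itself, Ppara, named after its values were seen, was at 283 ± 39.6 CPM in B6 and 282 ± 35.3 CPM in C3 (adjusted p = 0.918).

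Of 40 tested genes of fatty acid oxidation and ketogenesis, 8 were called higher in B6 and 1 higher in C3, with a median log2 fold change of -0.07, beside 0.02 over all tested genes. These calls are 22.5% of the list, beside 9.74% of all tested genes. Cyp4a14 and Cyp4a10 count here and again in the cytochrome P450 list below. Cyp4a14, Vnn1 and Cyp4a10 differed most. Cyp4a14, like Cyp4a10 an omega-hydroxylase of fatty acids, was at 359, 54.2, 8.16, 129 and 20.3 CPM in B6 and 1.28, 1.41, 2.70, 1.14 and 1.28 in C3 (log2 fold change -5.92 ± 0.77, adjusted p = 8.2e-06). Cyp4a10 was at 527, 289, 65.2, 318 and 165 CPM in B6 and 8.39, 4.52, 18.3, 7.60 and 15.8 in C3 (-4.66 ± 0.45, adjusted p = 1.6e-07). The B6 livers differed widely among themselves, from 8.16 to 359 CPM for Cyp4a14, yet the lowest B6 liver stood above the highest C3 liver for both genes. Vnn1, a pantetheinase that releases cysteamine and a known PPAR-alpha target, was at 77.4, 51.7, 30.3, 47.9 and 33.1 CPM in B6 and 1.39, 1.15, 1.26, 1.19 and 1.57 in C3 (-5.26 ± 0.37).

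Acaa1b, a thiolase of peroxisomal beta-oxidation, was at 1492, 767, 889, 1575 and 715 CPM in B6 and 471, 389.6, 345, 515 and 554 in C3 (log2 fold change -1.23 ± 0.13, adjusted p = 5.4e-07, and 0.00114 without the pool term). Changes of Decr2, Acadl and Slc25a20, named after their values were seen, were smaller. Decr2, the peroxisomal dienoyl-CoA reductase, differed by -0.66 ± 0.09, the mitochondrial long-chain acyl-CoA dehydrogenase Acadl by -0.54 ± 0.07, and the carnitine-acylcarnitine carrier Slc25a20 by -0.51 ± 0.08, whose size was under 0.5 in 3 of the 10 fits without 1 liver (B6 liver 5, C3 liver 1 or C3 liver 4). Cpt1a, which admits fatty acids to mitochondria and was named after its values were seen, was not called, at 333 ± 15.6 CPM in B6 and 379 ± 41.3 CPM in C3 (adjusted p = 0.158). Aldh3a2, a fatty aldehyde dehydrogenase, was higher in B6 (618 ± 107 CPM in B6 and 208 ± 10.7 CPM in C3, -1.53 ± 0.12), as was Acot11, the one called gene of 10 tested acyl-CoA thioesterases, at 16.8, 16.4, 11.1, 11.3 and 16.7 CPM in B6 and 0.580, 0.662, 0.689, 0.618 and 1.36 in C3 (-4.31 ± 0.18).

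Fgf21, a hormone that the liver releases on fasting and protein shortage, went the other way. It was at 1.80, 0.337, 0.318, 0.814 and 1.56 CPM in B6 and 18.8, 5.21, 10.4, 10.8 and 7.57 in C3 (log2 fold change 3.34 ± 0.42, adjusted p = 5.7e-06), with no overlap of the strains.

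Among 32 tested genes of lipid uptake and lipid droplets, 4 were higher in B6 and 1 higher in C3 (median -0.05). Cd36, the fatty acid translocase, was at 180.3, 164, 95.8, 169 and 108 CPM in B6 and 21.7, 26.3, 31.04, 18.8 and 17.5 in C3 (log2 fold change -2.63 ± 0.22, adjusted p = 3.2e-08). Cidec, a protein that fuses lipid droplets, was at 5.32, 3.52, 1.69, 1.73 and 1.53 CPM in B6 and 0.542, 0.432, 0.420, 0.356 and 0.321 in C3 (-2.76 ± 0.38). Both are known PPAR-gamma targets in fatty liver, and neither overlapped between strains. Plin4, a droplet coat protein, was at 9.96 ± 1.19 CPM in B6 and 4.80 ± 0.882 CPM in C3 (-1.06 ± 0.21), a difference that lost its call in 8 of the 10 fits that left out 1 liver, where its adjusted p reached 0.00476 without C3 liver 4. The fatty acid transporter Slc27a1, named after its values were seen, differed by -0.73 ± 0.11. Lpl, lipoprotein lipase, which adult hepatocytes normally make little of, was higher in C3, at 61.2, 50.2, 40.4, 73.4 and 63.3 CPM against 20.9, 20.6, 24.9, 19.1 and 17.1 in B6 (1.51 ± 0.15). B6 liver 1 held the highest CPM of the 5 B6 livers for Cyp4a14, Cyp4a10, Vnn1, Cd36, Cidec and Cfd, and all of these were also called without it. The estimate for Cyp4a14 then moved to -4.89, with a mean of 53.001 ± 54.5 CPM over the 4 remaining B6 livers. The adipocyte genes Adipoq, Plin1 and Lep had at most 1 count in any of the 10 livers, while Retn had 5 counts in B6 liver 1, 1 in B6 livers 2 and 3 and 0 in the others.

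Genes for synthesis of fat and cholesterol gave few calls. Of 31 tested genes of fatty acid and triglyceride synthesis, 1 was higher in C3 and 1 in B6. The C3 gene was Elovl2, the elongase of polyunsaturated fatty acids (414 ± 33.5 CPM in B6 and 623 ± 34.2 CPM in C3, 0.62 ± 0.10), and the B6 gene Scd2, a desaturase isoform that is minor in liver and whose locus overlaps another on the same strand (-0.62 ± 0.12), which lost its call in 6 of the 10 fits without 1 liver (adjusted p = 0.00423 without B6 liver 1). None of 28 tested genes of cholesterol synthesis and LDL uptake was called (median -0.02), and among them the sterol desaturase Sc5d was at 733 ± 129 CPM in B6 and 591 ± 70.4 CPM in C3 (adjusted p = 0.0724). In the bile acid list of 32, Cyp46a1, the cholesterol 24-hydroxylase known mainly from brain, was at 1.44, 0.704, 0.392, 0.962 and 0.644 CPM in B6 and 118, 88.4, 102, 83.7 and 119 in C3 (6.85 ± 0.23, adjusted p = 5.3e-14). It was the largest difference of the list. Fgfr4, the receptor that curbs bile acid synthesis, was also higher in C3, by 0.54 ± 0.06, which was 0.49 without C3 liver 5, and Abcc4, an exporter of bile acids and nucleotides whose locus overlaps another on the same strand, was higher in B6 (3.66 ± 1.05 CPM in B6 and 2.23 ± 0.384 CPM in C3, -0.81 ± 0.15, with adjusted p = 0.0142 without the pool term). These 3 calls are 9.38% of the list, beside 9.74% of all tested genes, and the B6 count was 0 without B6 liver 1, B6 liver 2 or C3 liver 4.

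**Figure D3:**
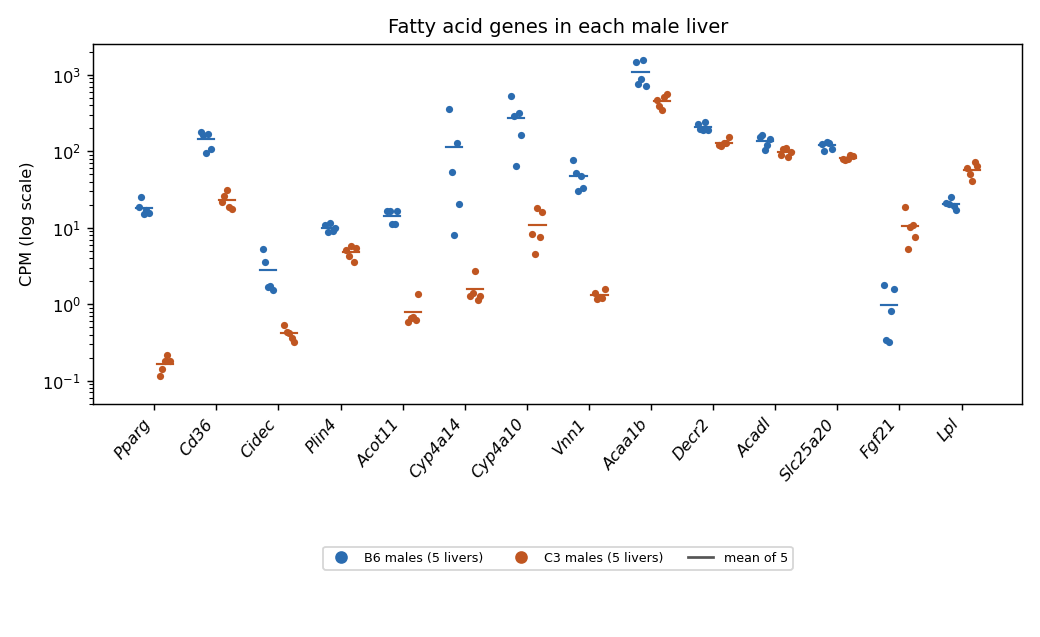
CPM (log scale) of 14 genes of fatty acid oxidation, storage and uptake in each male liver, with a line at the mean of each group of 5. The first 12 genes are higher in B6, with the widest spread between B6 livers at Cyp4a14 and Cyp4a10, and Fgf21 and Lpl on the right are higher in C3.

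For these genes the RefSeq promoter windows (GRCm38.p6, from 250 bases before to 50 after a transcription start) were searched for the DR1 motif AGGTCANAGGTCA, which PPAR receptors bind with RXR, on both strands and allowing 2 mismatches in its 12 fixed letters. Windows were on hand for 10 called genes of the oxidation, uptake and nuclear receptor lists, Fgf21, higher in C3, among them. Of these 10, 2 held a match, Cd36 and Slc25a20, each with 2 mismatches, beside 3.86% of all 32851 windows. Among the 10465 tested autosomal genes with a window the share was 3.80%. The 10 genes were picked by their calls, and whether their share differs from the others was not tested. The Cd36 sequence is shown because this gene joins a large strain difference to a match, 63 bases before the start, on the minus strand of the window. It covers chr5:17835897-17836146 (minus strand, GRCm38.p6), is printed up to the base before the start, and has the match in capitals.
Cd36 promoter: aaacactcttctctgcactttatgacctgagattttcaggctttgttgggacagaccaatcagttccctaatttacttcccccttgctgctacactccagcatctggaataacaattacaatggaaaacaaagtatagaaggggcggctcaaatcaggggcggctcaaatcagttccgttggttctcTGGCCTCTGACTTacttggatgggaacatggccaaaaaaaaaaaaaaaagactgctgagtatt
A match describes letters and not binding, and windows for other called genes, such as Cyp4a14, Cyp4a10, Vnn1 and Lpl, were not used here. Of the 13-base match in Slc25a20, AGGTGAAAGGTCG, the first base lies 7 bases after the start. Among genes called higher in B6 with a window, 4.80% of 583 held a match, and among those called higher in C3, 6.07% of 412. The windows of Pparg, Cidec and Plin4 held no match within these limits.

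Detoxification genes differed in both directions. The Cyp1 to Cyp4 families of cytochrome P450, which oxidise drugs, steroids and fatty acids, had 6 genes called higher in C3 and 13 higher in B6 among 64 tested, 29.7% beside 9.74% of all tested genes. Several P450 genes are near-identical copies, and read pairs that mapped to more than 1 place were not counted, so their levels are uncertain. Cyp3a44 was at 0.216 ± 0.103 CPM in B6 and 5.92 ± 2.66 CPM in C3 (log2 fold change 4.81 ± 0.56), and Cyp2c39, which hydroxylates retinoic acid, at 6.22, 4.56, 1.71, 3.18 and 2.79 CPM in B6 and 49.8, 23.7, 48.7, 21.8 and 31.7 in C3 (3.13 ± 0.23). Of the abundant members, Cyp2c67 was at 292, 407, 388, 279 and 529 CPM in B6 and 1051, 952, 1557, 959 and 831 in C3 (1.53 ± 0.15). Cyp2c70 of the same cluster, which makes the muricholic acids of mouse bile, rose from 688 ± 202 to 1182 ± 146 CPM (0.84 ± 0.15). That call was lost without B6 liver 1, B6 liver 2 or C3 liver 4, with adjusted p of 0.00195, 0.00115 and 0.00139. The direction was the reverse within the same cluster for Cyp2c69, at 8.59 ± 8.47 CPM in B6 and 0.542 ± 0.445 CPM in C3 (-3.89 ± 0.68), which lost its call without C3 liver 4 (adjusted p = 0.00148) and stood at -3.05 without B6 liver 3.

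Most calls among conjugating enzymes were higher in B6. Among 22 tested glutathione S-transferases 4 were higher in B6 and 1 higher in C3, a B6 count that was 2 without B6 liver 1 and also without C3 liver 5, and the list's median was -0.32. Gstm2 was at 88.8 ± 20.3 CPM in B6 and 54.02 ± 7.48 CPM in C3 (-0.82 ± 0.11). All 3 called UDP-glucuronosyltransferases of 18 tested were higher in B6, most of all Ugt3a1, at 69.2, 71.1, 87.8, 104 and 70.5 CPM in B6 and 20.5, 20.02, 23.04, 27.4 and 22.2 in C3 (-1.74 ± 0.11), followed by Ugt3a2 (-0.55 ± 0.06) and Ugt2b35 (-0.55 ± 0.11). The last of these was called in 4 of the 10 fits without 1 liver. The 3 called genes of the 23 alcohol and aldehyde dehydrogenases, Adh1, Aldh3a2 and Adh6-ps1, were all higher in B6. Of 16 carboxylesterases, which hydrolyse ester drugs and lipids, 2 were higher in C3 and 2 in B6 (1 in B6 without B6 liver 1, B6 liver 2 or C3 liver 1, 3 or 5). Ces1b was at 57.6, 48.3, 63.5, 60.4 and 44.1 CPM in B6 and 453, 429, 393, 487 and 516 in C3 (3.07 ± 0.06, adjusted p = 1.7e-16), a tight and complete separation. Ces1e was also higher in C3 (0.85 ± 0.12), while Ces2c (72.2 ± 29.2 CPM in B6 and 14.7 ± 5.13 CPM in C3, -2.15 ± 0.22) and Ces1g (329 ± 51.03 CPM in B6 and 218 ± 21.9 CPM in C3, -0.60 ± 0.11) were higher in B6. The sulfotransferase Sult1c2 was higher in C3 (2.58 ± 0.509 CPM in B6 and 9.12 ± 1.41 CPM in C3, 1.77 ± 0.16) as the one call of 13, and the flavin monooxygenase Fmo5 higher in B6 (419 ± 16.2 CPM in B6 and 267 ± 16.96 CPM in C3, -0.67 ± 0.08) as the one call of 5.

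Steroid and retinol enzymes were called at 5 of 48 tested loci, 10.4% beside 9.74% of all tested genes. Hsd17b6, which converts androgens back from their reduced forms, was at 106 ± 10.97 CPM in B6 and 345 ± 45.8 CPM in C3 (1.67 ± 0.14), and Rdh18-ps, a pseudogene of the retinol dehydrogenase cluster, at 1.70 ± 0.348 CPM in B6 and 11.7 ± 4.26 CPM in C3 (2.54 ± 0.28). Both lie in the same megabase of chromosome 10. Higher in B6 were the aldo-keto reductases Akr1e1 (39.2 ± 3.18 CPM in B6 and 8.84 ± 6.02 CPM in C3, -2.29 ± 0.27) and Akr7a5 (-0.52 ± 0.05, but -0.49 and not called without C3 liver 1) and the lipid droplet dehydrogenase Hsd17b13 (326 ± 92.97 CPM in B6 and 150.02 ± 12.4 CPM in C3, -1.19 ± 0.16). The 3 calls higher in B6 became 5 without B6 liver 3. Of 39 ABC transporters, Abca3, the phospholipid exporter known from lung surfactant, was at 53.8, 49.1, 33.4, 58.6 and 34.4 CPM in B6 and 234, 239, 200.04, 266 and 256 in C3 (2.38 ± 0.13), and Abca8a also was higher in C3 (0.72 ± 0.09). Abcc6, whose loss is known to cause ectopic mineralisation, was at 119 ± 38.2 CPM in B6 and 52.1 ± 14.6 CPM in C3 (-1.09 ± 0.09). Slc22a3, an organic cation transporter, was the one call among 21 Slc22 and Slco genes (4.01 ± 0.817 CPM in B6 and 0.953 ± 0.248 CPM in C3, -1.95 ± 0.17).

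Major urinary proteins, which carry pheromones into male urine and are known to depend on pulsatile growth hormone, were among the families with the largest share of calls. Of 20 tested Mup loci 4 were higher in C3 and 8 higher in B6 (60.0%, median -1.34). The Mup genes are near-identical copies in 1 cluster on chromosome 4, so pairs that fit several copies were left out and the share that each copy received is uncertain, the more so where strains differ in copy sequence. Mup20, the most abundant of the called copies, was at 2945, 6221, 7775, 3609 and 8628 CPM in B6 and 1033, 1814, 1498, 1411 and 1351 in C3 (log2 fold change -1.99 ± 0.25, adjusted p = 5.0e-06). Mup12 went the other way, at 81.6, 170.03, 153, 108 and 202 CPM in B6 and 578, 774, 807, 1038 and 593 in C3 (2.57 ± 0.34), as did Mup21, at 165, 251, 459, 216 and 427 CPM in B6 and 838, 899.7, 1047, 1038 and 778 in C3 (1.67 ± 0.24). B6 livers 1 and 4 were the lowest of the B6 livers for Mup11, Mup14, Mup20, Mup12 and Mup21 alike. Mup9 averaged 28.3 ± 23.4 CPM in B6 and 219 ± 78.6 CPM in C3 (3.23 ± 0.49). Symbol Mup2 stands on 2 tested loci of opposite direction. The locus at chr4:60148785-60152728 (mm9) also overlaps another on the same strand and was higher in C3 (2.42 ± 0.26), and the one at chr4:60591113-60675242, which spans Mup11 on the same strand, was at least 72.8-fold lower in C3 (48.1-fold without B6 liver 5).

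Secreted plasma proteins of other families were called at a lower share. In the complement list of 36, C1rb and C1s2 were higher in C3 and 5 genes higher in B6 (median 0.11). C4b, complement component 4 of the histocompatibility region, was at 1328, 1131, 1588, 1472 and 1051 CPM in B6 and 291, 295, 232, 369 and 291 in C3 (-2.11 ± 0.14, adjusted p = 1.3e-09). It did not overlap between strains. Of 18 apolipoprotein genes 5 were higher in C3 and 1 in B6, and without B6 liver 1 the C3 count was 3. Apoa4, a protein of chylomicrons and high-density lipoprotein, was at 158, 161, 93.7, 103 and 179 CPM in B6 and 492, 499, 479, 419 and 599.8 in C3 (1.76 ± 0.21). Apol7a was higher in B6 (-0.70 ± 0.12). Apcs, serum amyloid P component, was at 34.5, 35.03, 60.8, 40.8 and 28.7 CPM in B6 and 251, 208, 219.6, 293 and 178 in C3 (2.67 ± 0.19, adjusted p = 3.6e-09), in the list of 29 acute phase genes. Metallothionein 1, Mt1, which binds zinc and responds to glucocorticoids, was at 4.84 ± 1.79 CPM in B6 and 30.97 ± 24.98 CPM in C3 (2.65 ± 0.47), with adjusted p = 0.00102 without B6 liver 2 and a log2 fold change of 1.91 without C3 liver 3, and the 2 acute phase genes higher in B6, Orm2 and Saa3, lost the call in 6 and 8 of the 10 fits without 1 liver.

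Of 29 coagulation genes, 22 had a fold change above 0, and 2 were called (6.90%, beside 9.74% of all tested genes). F12 was higher in B6, at 451, 388, 440.2, 407 and 423 CPM against 273, 255, 253, 248 and 283 in C3 (-0.71 ± 0.05), and F11 higher in C3 (99.6 ± 23.1 CPM in B6 and 167 ± 15.7 CPM in C3, 0.76 ± 0.13), though its adjusted p was 0.00142 without B6 liver 1 and 0.00122 without C3 liver 4. Both factors belong to the contact pathway of clotting. Of 32 serpins 2 were called higher in C3 and 3 higher in B6, while 23 had a fold change above 0 (median 0.17). Higher in C3 were Serpina12, which encodes vaspin (69.4 ± 24.1 CPM in B6 and 141 ± 29.5 CPM in C3, 1.199 ± 0.23), and Serpina11 (52.3 ± 10.4 CPM in B6 and 82.2 ± 6.34 CPM in C3, 0.74 ± 0.14), neither called without the pool term, and calls in that direction numbered 0 (B6 liver 2 or 4 or C3 liver 1, 4 or 5 left out) to 3 in the fits without 1 liver. Higher in B6 were Serpinb1a, an inhibitor of neutrophil proteases (11.9 ± 6.22 CPM in B6 and 2.53 ± 0.179 CPM in C3, -2.19 ± 0.32), Serpine2 (25.1 ± 9.74 CPM in B6 and 8.88 ± 1.67 CPM in C3, -1.42 ± 0.22) and Serpinb6b (-1.16 ± 0.21), the last in 5 of the 10 fits without 1 liver. In iron handling, besides Trf, the exporter ferroportin, Slc40a1 (0.73 ± 0.09), and the importer Slc39a14 (0.62 ± 0.10) were higher in C3 and Hfe higher in B6 (-0.50 ± 0.06). The last of these sat at the fold limit, since its size fell just below 0.5 in 4 fits without 1 liver. Alad, the enzyme of the second step of heme synthesis, was at 151, 111, 177, 150.4 and 148 CPM in B6 and 307, 284, 381, 358 and 355 in C3 (1.25 ± 0.13), and Blvrb, biliverdin reductase B, was higher in B6 (108 ± 17.6 CPM in B6 and 66.9 ± 7.39 CPM in C3, -0.79 ± 0.05).

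Amino acid enzymes were called at 9 of 57 tested genes, 3 higher in C3 and 6 in B6 (15.8%, beside 9.74% of all tested genes). Nnmt, which methylates nicotinamide, was at 45.8, 38.2, 104, 87.8 and 46.2 CPM in B6 and 1.24, 1.27, 1.14, 1.97 and 0.749 in C3 (-5.42 ± 0.27, adjusted p = 2.1e-11). Oat, ornithine aminotransferase, was at 975, 667, 1265, 1664 and 709 CPM in B6 and 332, 273, 347, 458 and 272 in C3 (-1.47 ± 0.19). Glul, glutamine synthetase, which captures the last ammonia before blood leaves the lobule and whose locus overlaps another on the same strand, was at 1510.2, 1463, 1099, 1112 and 1642 CPM in B6 and 643, 702, 937, 617 and 845 in C3 (-0.95 ± 0.12, with adjusted p = 0.00957 without the pool term). For all 3 genes the lowest B6 liver lay above the highest C3 liver. Higher in C3 were Agxt, which detoxifies glyoxylate (252 ± 41.5 CPM in B6 and 536 ± 70.5 CPM in C3, 1.11 ± 0.08), and Bckdhb, a subunit of the branched-chain keto acid dehydrogenase (61.2 ± 6.79 CPM in B6 and 104 ± 5.89 CPM in C3, 0.75 ± 0.07).

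Glul and Oat belong to the layer of hepatocytes around the central vein. Of 21 pericentral markers 6 were higher in B6 and 0 in C3 (28.6%, beside 9.74% of all tested genes). Of the 21, 17 had a negative fold change, and the median was -0.19. Besides Glul and Oat the calls included the glutamate transporter Slc1a2, at 182, 173, 189.7, 203 and 187 CPM in B6 and 46.3, 44.2, 67.1, 54.1 and 57.96 in C3 (-1.78 ± 0.11), and the coumarin hydroxylase Cyp2a5, at 1107, 1050.0, 655, 874 and 739 CPM in B6 and 388, 315, 389, 322 and 349 in C3 (-1.42 ± 0.20). The remaining calls were Lgr5, the R-spondin receptor of the same layer (12.4 ± 1.27 CPM in B6 and 6.51 ± 2.58 CPM in C3, -0.98 ± 0.17), with adjusted p of 0.00135 without B6 liver 1 and 0.00132 without C3 liver 4, and the ammonia transporter Rhbg (-0.74 ± 0.11), named after its values were seen. Of 21 periportal markers, 2 were called in each direction and the median was 0.06. Histidase, Hal, was higher in B6 (378 ± 61.4 CPM in B6 and 233 ± 32.8 CPM in C3, -0.68 ± 0.11), as was Hsd17b13, while Apoa4 and Igf1 were higher in C3, the last in 4 of the 10 fits without 1 liver.

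Growth hormone signalling and IGF binding gave calls in 1 direction. All 4 called genes of 25 tested were higher in C3 (median 0.16), beside calls at 9.74% of all tested genes. None of the 4 was called in the same direction in females. Igfals and Igf1, given below, were not called without the pool term (adjusted p = 0.0757 and 0.0215). Igfbp2, an IGF-binding protein, was at 257, 162, 194, 236 and 181 CPM in B6 and 462, 326, 351, 461 and 589 in C3 (1.08 ± 0.16), and Prlr, the prolactin receptor, at 113, 150.1, 59.8, 114 and 119 CPM in B6 and 280.04, 195, 255, 189.5 and 198 in C3 (0.97 ± 0.16), which was not called without the pool term (adjusted p = 0.00316). Igfals, which holds IGF in the circulating ternary complex, was at 79.3 ± 24.2 CPM in B6 and 133 ± 45.9 CPM in C3 (0.84 ± 0.12), with overlap of the strains. Igf1 itself was at 587 ± 126 CPM in B6 and 824 ± 56.8 CPM in C3 (0.51 ± 0.10), close to the fold limit, and was called in 4 of 10 fits without 1 liver, its adjusted p reaching 0.00572 without B6 liver 1.

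Lists of energy metabolism, the clock and stress responses gave few calls. Of 74 nuclear genes of oxidative phosphorylation, Ndufa12 of complex I was the one call (62.6 ± 21.4 CPM in B6 and 104 ± 22.5 CPM in C3, 0.63 ± 0.05), and of 36 genes of glucose and glycogen metabolism Gapdh was (923, 698, 584, 604 and 833 CPM in B6 and 507, 435, 434, 365 and 444 in C3, -0.83 ± 0.08), with adjusted p = 0.00198 without the pool term. No gene of the 27 immediate early and glucocorticoid response genes was called, and among them Gadd45g was at 13.8 ± 18.3 CPM in B6 and 29.8 ± 25.8 CPM in C3 (adjusted p = 0.278). The clock list gave 1 call of 24, Fbxl21 (-1.04 ± 0.21), which was lost in 7 fits without 1 liver, and the endoplasmic reticulum stress list 1 of 30, Atf5 (0.57 ± 0.11), lost in 6. In the redox list, Nqo1 (6.61 ± 1.95 CPM in B6 and 2.67 ± 0.711 CPM in C3, -1.21 ± 0.15) and Srxn1 (-0.57 ± 0.08), both known targets of the antioxidant regulator NRF2, were higher in B6, and Gss, glutathione synthetase, was higher in C3 by 0.50 ± 0.09, a call lost in 4 of 10 fits without 1 liver.

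**Figure D4:**
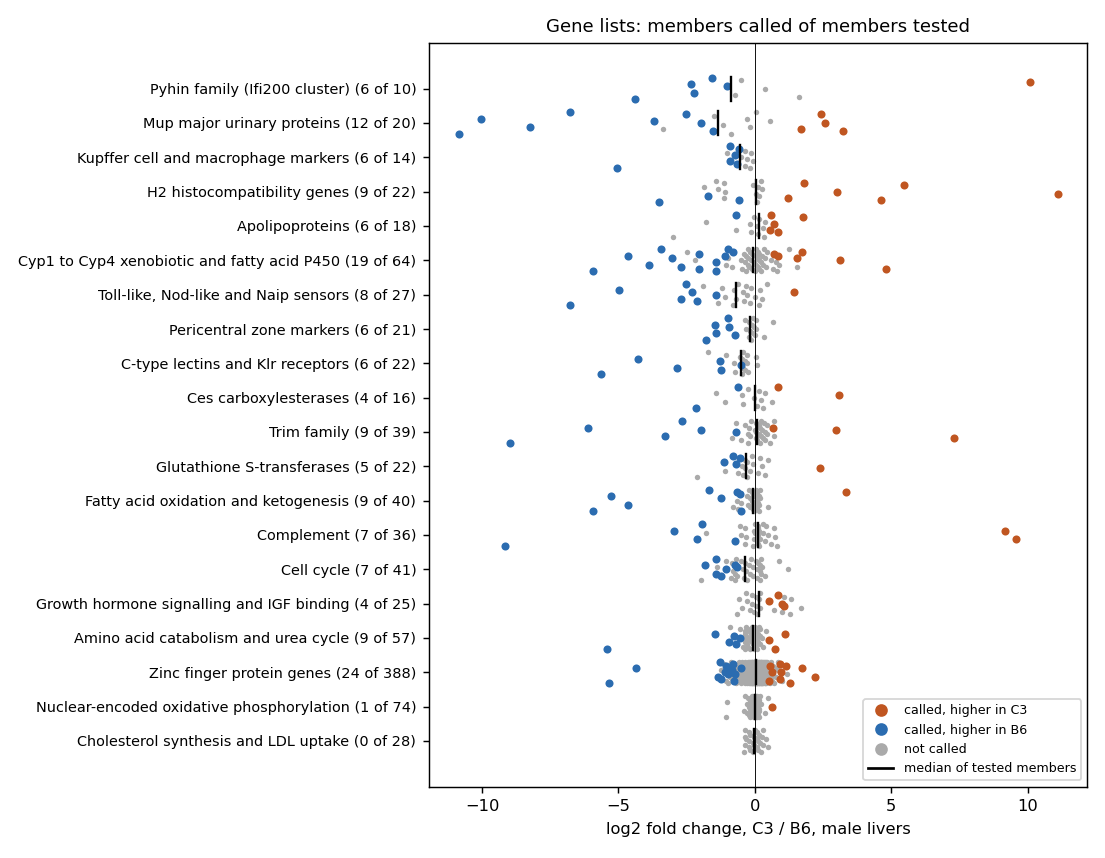
Log2 fold change of C3 over B6 in male livers (horizontal axis) of the tested members of 20 gene lists, with called members coloured, members that were not called in grey and the median of each list as a vertical line. Lists are ordered by the share called, from 0 of 28 cholesterol genes at the bottom to 6 of 10 Pyhin genes and 12 of 20 Mup loci at the top, and the 14 Kupffer cell markers all lie left of 0.

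Immune gene families held several of the highest shares of calls. In the Pyhin family on chromosome 1, which senses DNA, Ifi202b was higher in C3 and 5 of the 10 tested genes were higher in B6, a count that was 3 in each fit without B6 liver 1, C3 liver 2 or C3 liver 3. Ifi204 was at 12.5, 16.7, 8.23, 9.15 and 15.3 CPM in B6 and 3.71, 2.995, 2.07, 1.996 and 2.03 in C3 (-2.35 ± 0.16), and Pyhin1 at 1.96 ± 0.332 CPM in B6 and 0.379 ± 0.217 CPM in C3 (-2.24 ± 0.23). Of 22 tested H2 genes 6 were higher in C3 and 3 in B6 (6 without C3 liver 1). H2-Q2 and H2-Bl, class I genes, were at 0.112 ± 0.0835 CPM in B6 and 4.40 ± 2.99 CPM in C3 (5.45 ± 0.38) and at 0.0890 ± 0.0435 CPM in B6 and 2.27 ± 0.798 CPM in C3 (4.64 ± 0.34), and the class I gene H2-Q5 at 1.35 ± 0.193 CPM in B6 and 0.123 ± 0.0772 CPM in C3 (-3.50 ± 0.34). The classical class I gene H2-K1, by far more abundant, was at 984, 840.3, 979, 1146 and 833 CPM in B6 and 793, 592, 602, 635 and 657 in C3 (-0.57 ± 0.09). H2 alleles differ in sequence between these strains, which carry different haplotypes, and the part of this in counts against the mm9 genome, a C57BL/6J sequence, was not tested.

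The Trim family of 39 had 3 genes higher in C3 and 6 in B6, most of them in a single cluster of antiviral genes. Trim34b had at most 3 counts in B6 livers and 1.66, 1.47, 1.05, 1.43 and 1.75 CPM in C3, at least 17.2-fold higher, and Trim6 was at 0.326 ± 0.106 CPM in B6 and 2.47 ± 0.753 CPM in C3 (2.96 ± 0.26). Trim5, a restriction factor, was at 2.60, 2.45, 1.86, 2.81 and 2.03 CPM in B6 and at least 24.95-fold lower in C3, and Trim30d at 6.26 ± 1.29 CPM in B6 and 0.610 ± 0.300 CPM in C3 (-3.31 ± 0.25). Of 59 interferon-stimulated genes 4 were higher in C3, among them Mx2 (4.898 ± 1.28 CPM in B6 and 11.996 ± 2.96 CPM in C3, 1.43 ± 0.14), Stat2 (0.64 ± 0.10) and Tap2 (0.66 ± 0.09), and 7 higher in B6, among them Slfn8 (3.29 ± 0.397 CPM in B6 and 0.981 ± 0.240 CPM in C3, -1.78 ± 0.14) and Bst2 (-0.74 ± 0.10). Gbp11, an interferon-inducible GTPase, was at 5.45, 32.8, 8.43, 11.4 and 5.06 CPM in B6 and 85.03, 94.1, 77.6, 85.6 and 81.3 in C3 (2.90 ± 0.46), where B6 liver 2 held the highest CPM of its group and the value was 3.53 without it, and it was the one call of 18.

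Most calls among receptors of innate cells were higher in B6. Of 27 Toll-like, Nod-like and Naip sensors 7 were higher in B6 and 1 in C3, Tlr6, whose call was lost in 8 of 10 fits without 1 liver (median -0.71). Nlrp12, a Nod-like receptor that dampens inflammation, was at 22.2, 28.8, 22.9, 23.7 and 25.7 CPM in B6 and 1.35, 0.432, 0.809, 0.808 and 0.535 in C3 (-4.97 ± 0.28, adjusted p = 9.2e-11), and Naip1, which senses bacterial needle proteins, at 1.10 ± 0.378 CPM in B6 and 0.236 ± 0.0858 CPM in C3 (-2.12 ± 0.31). All 6 called genes of 22 C-type lectins and Klr receptors were higher in B6 (3 without C3 liver 4). Clec2h was at 5.64, 10.4, 7.18, 6.76 and 3.84 CPM in B6 and 0.0387, 0.259, 0.270, 0.0238 and 0.0357 in C3 (-5.64 ± 0.57), and Clec7a, the beta-glucan receptor Dectin-1, at 5.28 ± 0.834 CPM in B6 and 2.21 ± 0.304 CPM in C3 (-1.25 ± 0.17). Among chemokines Ccl27a was at 5.93, 5.66, 3.87, 3.70 and 6.41 CPM in B6 and 0.0774, 0.230, 0.180, 0.119 and 0.250 in C3 (-4.94 ± 0.17), the monocyte receptor Ccr2 at 2.21 ± 0.678 CPM in B6 and 0.536 ± 0.197 CPM in C3 (-1.94 ± 0.30), and the B cell chemokine Cxcl13 at 1.73 ± 0.891 CPM in B6 and 0.218 ± 0.107 CPM in C3 (-2.96 ± 0.35), all higher in B6. Ccl9 (50.7 ± 10.9 CPM in B6 and 136 ± 28.6 CPM in C3, 1.38 ± 0.10) and the neutrophil chemokine Cxcl1 (6.32 ± 2.01 CPM in B6 and 19.9 ± 6.50 CPM in C3, 1.62 ± 0.27) were higher in C3.

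Some markers of liver macrophages were also higher in B6. All 14 Kupffer cell and macrophage markers had a negative fold change (median -0.56), 6 were called higher in B6 (3 without B6 liver 1), and their summed level ran from 489 to 712 CPM in B6 and from 355 to 500.1 CPM in C3. Folr2, folate receptor beta, differed most, at 10.6, 9.36, 10.9, 10.9 and 10.2 CPM in B6 and 0.426, 0.230, 0.330, 0.238 and 0.393 in C3 (-5.05 ± 0.16, adjusted p = 4.1e-14). The defining gene Clec4f was at 105 ± 24.4 CPM in B6 and 75.9 ± 13.7 CPM in C3 (adjusted p = 0.00139) and Timd4 at 10.8 ± 2.01 CPM in B6 and 10.97 ± 2.42 CPM in C3 (fitted log2 fold change -0.07, adjusted p = 0.747), both named after their values were seen. Adgre1, which encodes F4/80, differed by -0.91 ± 0.16 and lysozyme 2, Lyz2, by -0.90 ± 0.16, and each lost its call without B6 liver 1 (adjusted p = 0.00177 and 0.00179) or C3 liver 4 (0.00125 and 0.00148). The part of macrophage content in the sensor and lectin results was not tested. These macrophage sums overlapped between strains, while the summed level of the hepatocyte list, given above, did not and was higher in C3. Of the 10 hepatocyte markers only 2 were called, Trf and Apoa1, with a list median of 0.19. Neither was called without the pool term. Summed levels of other cell lists overlapped between strains for sinusoidal endothelium (465 to 561 CPM in B6, 477 to 564 in C3) and T cells (4.71 to 6.61 and 4.66 to 8.67). Of 6 tested T cell markers, though, 5 had a negative fold change (median -0.93). Sums also overlapped for B cells (225 to 325 and 254 to 283), where 6 of 7 tested were negative (median -1.40). For NK cells they overlapped too (0.982 to 2.52 and 0.629 to 1.08), with 1 of 4 tested markers called higher in B6. Summed levels did not overlap for stellate cells (500.5 to 577 and 437 to 489) or cholangiocytes (34.9 to 45.05 and 22.8 to 31.5), both higher in B6, with no member called.

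All calls among cell cycle genes were higher in B6. Of 41 tested 7 were higher in B6 and none in C3 (17.1%, beside 9.74% of all tested genes), and the median was -0.35. In females 1 of these 7 was called in the same direction. E2f1, a driver of DNA replication genes, was at 2.79, 3.46, 3.14, 3.13 and 3.28 CPM in B6 and 0.890, 0.835, 0.869, 1.12 and 0.607 in C3 (-1.83 ± 0.14), Mcm2, a subunit of the replicative helicase, at 6.83, 4.31, 6.07, 7.33 and 4.88 CPM in B6 and 2.98, 1.73, 1.74, 2.66 and 2.28 in C3 (-1.41 ± 0.17), and the mitotic checkpoint kinase Bub1b at 1.10 ± 0.309 CPM in B6 and 0.429 ± 0.145 CPM in C3 (-1.43 ± 0.25, adjusted p = 0.00143 without B6 liver 1). In the list of liver growth and tumour-associated genes 3 of 35 were called (8.57%, beside 9.74% of all tested genes), Fgf21 higher in C3 and Lgr5 and Cd24a higher in B6, and the last was called in 3 of 10 fits without 1 liver. Without C3 liver 4 neither Lgr5 nor Cd24a was called.

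Structural families showed single strong outliers. Collagens were called at 7 of 31 tested loci (22.6%). Col6a5 was at 0.195 ± 0.0551 CPM in B6 and 2.07 ± 0.392 CPM in C3 (3.32 ± 0.33) and Col11a2 at 0.661 ± 0.288 CPM in B6 and 3.59 ± 0.840 CPM in C3 (2.53 ± 0.29), both higher in C3, and Col6a1 at 8.71 ± 1.77 CPM in B6 and 3.997 ± 0.719 CPM in C3 (-1.20 ± 0.17). Of the main fibrillar collagens, named after their values were seen, Col1a1 was at 2.49 ± 0.628 CPM in B6 and 0.780 ± 0.385 CPM in C3 (adjusted p = 0.00167) and Col3a1 at 40.8 ± 6.33 CPM in B6 and 24.9 ± 4.60 CPM in C3 (adjusted p = 0.00142), neither called. The list gave 2 to 3 calls higher in C3 and 1 to 5 in B6 in the fits without 1 liver. Of 54 tested histone loci, Hist1h2al was at 0.0321, 0.0918, 0, 0.0740 and 0 CPM in B6 and 9.40, 4.81, 6.38, 8.41 and 11.2 in C3 (at least 94.05-fold higher), Hist4h4 at 1.15 ± 0.537 CPM in B6 and 4.71 ± 1.52 CPM in C3 (2.12 ± 0.15) and Hist1h4a at 1.21 ± 0.644 CPM in B6 and 4.99 ± 1.004 CPM in C3 (2.12 ± 0.21). The 5 histone calls higher in B6 numbered 1 (B6 liver 1, B6 liver 3 or C3 liver 3 left out) to 6 in the fits without 1 liver. Of 86 loci named for cytosolic ribosomal proteins, 7 were called (8.14%), led by Rpl29, at 147, 132, 89.1, 73.7 and 149.6 CPM in B6 and 9.40, 6.85, 5.66, 10.6 and 8.03 in C3 (-3.88 ± 0.26), and Rps3a1, whose locus overlaps another on the same strand, at 276, 314, 251, 216 and 318 CPM in B6 and 72.7, 67.6, 72.4, 71.9 and 73.5 in C3 (-1.94 ± 0.11), while the median was 0.04. Histone and ribosomal protein genes have near-identical copies, so counts of single loci are uncertain. Zinc finger genes, the largest list, had 10 called higher in C3 and 14 in B6 of 388 (6.19%, median 0.05), among them Zfp157 (1.72 ± 0.17) and Zfp97 (-1.34 ± 0.17).

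Called genes were spread over all 19 autosomes, at 5.59% of tested genes on chromosome 18 to 12.4% on chromosome 17, and were dense in a few places. Of 1901 windows of 1 Mb (mm9) with a tested gene, 745 held a call and 60 held 4 or more, with 319 calls between them. The most, 11 of 50 tested genes, lay at chr17:34000001-35000000, the histocompatibility region, with H2-Ea-ps, C4b and H2-K1 as above, Btnl2, a butyrophilin-like gene (0.0583 ± 0.0393 CPM in B6 and 1.14 ± 0.416 CPM in C3, 4.07 ± 0.36), and the steroid 21-hydroxylase Cyp21a1 (1.09 ± 0.585 CPM in B6 and 0.0906 ± 0.0369 CPM in C3, -3.55 ± 0.42). At chr7:111000001-112000000, 8 of 9 tested genes were called, all of the Trim family, 3 higher in C3 and 5 in B6, a window chosen after its values were seen. At chr1:175000001-176000000, 8 of 13 were called, with Ifi202b and Ackr1, an atypical chemokine receptor (0.343 ± 0.158 CPM in B6 and 1.95 ± 0.253 CPM in C3, 2.57 ± 0.21), higher in C3 and 6 genes higher in B6. The Mup window at chr4:60000001-61000000 held 9 calls of 13. Direction was mixed in each of these 4 windows. At chr13:67000001-68000000, 10 of 33 were called, mostly zinc finger genes, such as Zfp457 (0.218 ± 0.121 CPM in B6 and 0.972 ± 0.233 CPM in C3, 2.21 ± 0.39, adjusted p = 0.00135 without B6 liver 1 and 0.00205 without C3 liver 4), with F630042J09Rik at 0.0285 ± 0.0219 CPM in B6 and 1.25 ± 0.450 CPM in C3 (at least 14.6-fold higher in C3). At chr8:74000001-75000000, 10 of 27 were called, with B3gnt3, a glycosyltransferase (2.21 ± 0.346 CPM in B6 and 0.670 ± 0.162 CPM in C3, -1.71 ± 0.20), and Bst2 higher in B6. At chr4:147000001-148000000, 9 of 22 were called, where Fbxo44, an F-box protein, averaged 3.07 ± 0.389 CPM in B6, with C3 at least 32.6-fold lower. A same-strand overlap with another gene, in which pairs were not counted, concerned 5.50% of called and 6.88% of tested genes.

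Females of the same strains, other mice kept in a separate room, gave 1260 calls (9.50% of tested genes), and 837 of the male calls were called in the same direction in them, 64.8% of the male and 66.4% of the female calls. The sign was shared for 1255 of the 1291, and 1142 of these had an adjusted p under 0.05 in females. Both sexes share 1 fit here, and with each sex fitted on its own 588 of 1075 male calls were shared. Genes near the floor in one strain of males, such as H2-Ea-ps, Ifi202b, C1s2, Trim12a and Cebpe, were called in females as well. Whether the strain difference differed between the sexes was tested as an interaction, which called 52 genes (0.392%), 42 of them called in males and 28 of these not called in females. The 42 fell to 24 without B6 liver 1 and to 25 without C3 liver 4. Since the sexes were housed in separate rooms, that test cannot tell sex from room.

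Several lipid genes were among the 42. Cd36 differed by -2.63 ± 0.22 in males and -0.49 ± 0.21 in females (interaction -2.14 ± 0.30, adjusted p = 4.3e-04), Cyp4a10 by -4.66 and -0.95 (interaction -3.71 ± 0.56, adjusted p = 8.5e-04), and Vnn1 by -5.26 and -1.85 (interaction -3.41 ± 0.46, adjusted p = 2.5e-04). Lpl was higher in C3 in males and differed by -0.30 ± 0.15 in females (interaction 1.80 ± 0.21, adjusted p = 6.0e-05). Pparg kept a large difference in females, of -4.29 ± 0.26 (interaction adjusted p = 0.00544), as did Fgf21, of 4.32 ± 0.45 (adjusted p = 0.484). Cyp2c67, higher in C3 males, differed by -0.23 ± 0.14 in females (interaction 1.76 ± 0.20, adjusted p = 5.9e-05).

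A reversal with calls in both sexes occurred at 2 genes, Mup21 and Ly6a. Mup21 differed by 1.67 in males and -2.17 in females (interaction adjusted p = 4.3e-06), and Ly6a, the stem cell antigen Sca-1, by 1.51 and -1.58 (adjusted p = 8.6e-05). In males Ly6a lost its call without B6 liver 1 (adjusted p = 0.00161) or C3 liver 4 (0.00195). Mup12 also changed sign, from 2.57 to -1.57 (adjusted p = 8.6e-05). The smallest interaction p-values belonged to BC089597, a locus known by its cDNA only, which was at 54.9, 31.9, 55.3, 68.5 and 28.6 CPM in B6 males and 11.1, 7.49, 7.61, 13.6 and 9.49 in C3 males and differed by -0.32 in females (adjusted p = 3.9e-07), and Tpmt, thiopurine methyltransferase, higher in C3 by 0.69 ± 0.06 in males and 1.73 ± 0.06 in females (adjusted p = 3.9e-07). Rcan2, a calcineurin inhibitor, was at 6.88 ± 1.07 CPM in B6 and 0.963 ± 0.0924 CPM in C3 in males (-2.95 ± 0.16) and differed by -0.35 in females (adjusted p = 5.7e-07). Colec12, a scavenger receptor, differed by -1.39 and -0.16 (adjusted p = 5.7e-07), and the kinase Aatk, whose locus overlaps another on the same strand, by -2.32 in males, while female means were 2.37 ± 0.324 CPM in B6 and 2.37 ± 0.498 in C3 (adjusted p = 1.5e-06). Adh6-ps1, like Tpmt, had the larger difference in females, -6.59 against -1.53 in males (adjusted p = 4.3e-07).

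**Figure D5:**
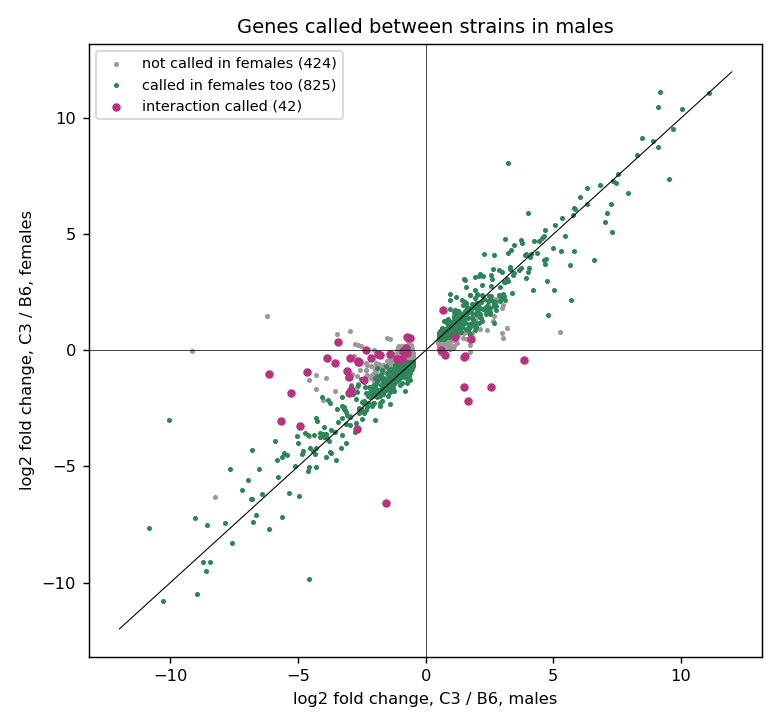
Log2 fold change of C3 over B6 in females (vertical axis) against males (horizontal axis) for the 1291 genes called in males, with genes called in females and the 42 with a called interaction marked and the line of equal change drawn. Most points follow the line. The genes with a called interaction mostly lie closer to 0 in females than in males, which drawing only genes called in males favours.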

How the data were processed

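RNA from the left lateral liver lobe was depleted of ribosomal RNA, made into stranded libraries and sequenced in 3 pools as paired reads. Per the labels and the study's methods, the authors trimmed reads with Cutadapt 1.9.1, mapped both strains to the mouse genome mm9 with STAR 2.5.1b and counted read pairs per RefSeq gene by strand with featureCounts of Subread 1.5.0-p1, without pairs of more than 1 alignment or gene. mm9 is a C57BL/6J sequence, and the effect of strain variants on C3 counts was not tested. The deposited values are raw counts per gene. The deposited TPM, which the authors made by dividing counts by gene length and scaling each library to the same sum, served for levels between genes only. The headers of the first 2 columns are exchanged in the table, and symbols were read from the column that holds them.

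Counts were fitted in edgeR 4.0.16 (R 4.3.3) with TMM scaling and quasi-likelihood tests, with group and pool as terms over all 20 libraries and edgeR's default filter on low counts, and p-values were adjusted by Benjamini-Hochberg over 13704 tested loci. A gene was called at an adjusted p under 0.001 and an absolute log2 fold change over 0.5. The SE is the fold change divided by the root of the F statistic. X-linked genes (26 of 422 called) were left out of the text. With 3 counts as the floor, bounds cover counting error only. Named genes were the 8 largest fold changes in each direction among called genes without overlap of the strains and with a mean of 1 CPM or more in the higher one, the 8 largest TPM differences in each, up to 3 called genes per list and direction (without a call, the member of highest mean TPM), the 6 smallest interaction p-values and the largest fold changes of the 6 densest 1 Mb windows, and other genes are said to be named after their values were seen. Some genes are not reported here. The members and lists were chosen with earlier results of these data known. On simulated counts for 13704 genes, the male comparison called 18 of 50 genes changed 1.5-fold and 42 of 50 changed 2-fold. It called 46 of 50 changed 4-fold and 0 of 13504 unchanged genes. The simulated counts had the fitted spread of each gene, no pool effect and no strain difference in females. They therefore do not give the rate of false calls in these data. DESeq2 1.42.0, other scalings, filters, thresholds and designs, and fits without 1 liver were alternatives.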

Additional observations from a re-analysis of the deposited data

Results flagged for a closer look

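Single livers stood apart from the 4 others of their group in 22 of 349 groups of 5 examined (6.30%, where chance gives about 1 in 20), by a gap of over 0.71 of the group's range (Dixon's criterion). C3 liver 5 was high for C1rb (138 CPM), Acot11 (1.36), Akr1e1 (19.4) and Bub1b (0.678). C3 liver 4 stood apart for Trf (29737 CPM), Ugt3a2 (390.0), Bst2 (58.7), Blvrb (54.2), Rdh18-ps (4.16) and Zfp457 (1.38). C3 liver 1 stood apart for Aldh3a2 (189.6 CPM), Lyz2 (20.9) and Dio1 (2.51), C3 liver 2 for Rps3a1 (67.6) and Cxcl13 (0.403), and C3 liver 3 for Cyp4a14 (2.70). Among B6 livers, liver 1 stood apart for Scd2 (8.30 CPM), liver 2 for Gbp11 (32.8), Cyp3a44 (0.398) and C1s2 (0.122), and liver 3 for Col11a2 (1.18) and the Mup2 locus that was higher in C3 (0.637). The groups of the strains kept apart for C1rb, Acot11, Cyp4a14 and Gbp11 with these livers included.

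The strain difference itself differed between males and females at 15 of the named genes by the interaction test, given as the male minus the female log2 difference. It was negative at Cyp4a10 (-3.71), Vnn1 (-3.41), Rcan2 (-2.60), Aatk (-2.32), Cd36 (-2.14), BC089597 (-1.83), Ccl27a (-1.68), Colec12 (-1.23) and Tpmt (-1.05). It was positive at Adh6-ps1 (5.05), Mup12 (4.14), Mup21 (3.84), Ly6a (3.09), Lpl (1.80) and Cyp2c67 (1.76).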

How the results depend on the processing

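No named gene that was called changed direction under any alternative tried, while Ppara and Timd4, not called, changed sign without pool and in some fits without 1 liver, and Ppara with upper-quartile scaling too. Of the 176 called genes named, 65 were not called with glmTreat, 52 at a log2 fold change over 1, 46 without pool and 15 with each sex fitted on its own. Without pool these were Abcc4, Abcc6, Acaa1b, Acadl, Adgre1, Adh1, Apoa1, Atf5, Blvrb, Bst2, Cd24a, Ces1g, Cfd, Cyp2c70, Elovl2, F11, Gapdh, Glul, Gss, Gstm2, Hal, Igf1, Igfals, Lgr5, Ly6a, Lyz2, Ndufa12, Nqo1, Orm2, Plin4, Prlr, Rhbg, Scd2, Serpina11, Serpina12, Slc25a20, Slc27a1, Slc39a14, Slc40a1, Srxn1, Stat2, Tap2, Tlr6, Trf, Ugt2b35 and Ugt3a2. With each sex on its own they were Abcc4, Cd24a, Ces1g, Cyp2c69, Cyp2c70, F11, Fbxl21, Gss, Igf1, Lgr5, Mt1, Prlr, Scd2, Slc27a1 and Slc39a14. The calls numbered 1299 with RLE scaling, 1311 with upper-quartile scaling and 1636 with DESeq2. A test against a log2 fold change of 0.5 (glmTreat) gave 572 calls, 248 higher in C3 and 324 in B6. An adjusted p under 0.05 gave 2263 (893 and 1370), and a log2 fold change over 1 gave 704 (288 and 416). Without the pool term 862 were past both thresholds, 362 of them higher in C3. Calls shared with females, 837 as reported, became 380 with glmTreat, 553 without pool, 1373 at an adjusted p under 0.05 and 448 at a log2 fold change over 1. The 42 male calls with a sex difference became 120 with DESeq2, 19 with glmTreat, 16 without pool and 196 at an adjusted p under 0.05. The causes of these changes were not tested, apart from the thresholds that define them. With each sex fitted on its own there were 1075 male calls, 463 higher in C3 and 612 in B6, and 588 were shared with females. That setting has no interaction to test. Without 1 liver there were 1085 (B6 liver 1 left out) to 1270 calls, 478 to 535 higher in C3 and 607 to 735 in B6, 742 to 824 shared with females, and 24 to 38 with a sex difference.

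Replicate numbers were not taken to pair the samples, since not every pair of same-numbered livers had deviations that correlated over 0.1. Correlations were -0.251 to 0.631, with 3 of 5 over 0.1, and -0.189 to 0.118 with pool removed, with 1 over 0.1. With the replicate block beside pool there were 1235 calls, 528 higher in C3 and 707 in B6, 801 shared with females and 30 with a sex difference, and Cfd, Plin4 and Saa3 were not called. Depth limits genes near 3 counts, where only bounds are given.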

Other observations

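Further genes with large differences, outside the lists and chosen after their values were seen, concern thyroid hormone, plasma proteins and lipid storage. Dio1, the deiodinase that activates thyroid hormone, was at 156 ± 22.2 CPM in B6 and 8.24 ± 3.34 CPM in C3 (log2 fold change -4.31 ± 0.47). Mug2, a murinoglobulin that traps proteases in plasma, was at 1150.4 ± 116 CPM in B6 and 104 ± 28.2 CPM in C3 (-3.44 ± 0.22). Acsf2, an acyl-CoA synthetase, was at 118 ± 24.1 CPM in B6 and 22.6 ± 4.34 CPM in C3 (-2.51 ± 0.11), and Fitm1, which partitions triglyceride into lipid droplets, at 54.7, 36.9, 49.99, 60.1 and 36.5 CPM in the B6 livers and 6.31, 3.80, 3.90, 8.05 and 4.68 in the C3 livers (-3.18 ± 0.19). Enho, which encodes adropin, was higher in C3, at 10.5 ± 5.63 CPM in B6 and 58.9 ± 9.49 CPM in C3 (2.67 ± 0.26). All 5 are called by the rule used above.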
